A study of Rattus norvegicus with 8 samples.

Results

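The proteasome genes described here are the 36 rat genes for the subunits of the 20S core particle, the 19S regulatory particle, the immunoproteasome and the 11S activator. They were chosen by gene symbol, as Psma1 to Psma7 and Psmb1 to Psmb7 for the core, Psmb8 to Psmb10 for the immunoproteasome, 6 Psmc genes and 11 Psmd genes for the regulatory particle, and Psme1 and Psme2 for the activator. A probe set whose annotation held 1 symbol was found for 35 of the 36 genes, out of 14217 genes with such a probe set on the array. The missing gene is Psmb6, whose probe set carries several symbols. The 35 genes all passed the filter on low signal, as did 10446 genes in all. One probe set per gene was used, the one with the highest mean log2 signal.

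The proteasome is the barrel-shaped protease that degrades proteins marked with ubiquitin. Its core is built of alpha rings, which gate the entrance, and beta rings, which hold the active sites, and a regulatory particle caps it, in which non-ATPase subunits capture and trim ubiquitinated proteins and a ring of ATPases unfolds them. Interferon-induced beta subunits can replace the constitutive active ones, and the resulting immunoproteasome, often with an 11S activator in place of the regulatory particle, makes peptides for presentation on MHC class I. In skeletal muscle the ubiquitin-proteasome system is a main route by which contractile proteins are broken down, and an excess of thyroid hormone is known to speed protein breakdown in limb muscle.

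The study asked how a hyperthyroid state alters transcripts of the extraocular muscles, the small striated muscles that move the eye. Adult Sprague-Dawley rats with an initial body weight of 200 ± 40 g were used. The hyperthyroid group (4 arrays, labelled 1, 2, 3 and 5) received 25 µg of the thyroid hormone T3 per 100 g of body weight by intraperitoneal injection every second day for 6 weeks and was killed 24 h after the last dose, and no treatment is named for the control group (4 arrays, labelled 7, 8, 9 and 11). Each array carried RNA of the whole dissected muscle, so a fall in the share of a cell type and a fall in RNA per cell cannot be told apart.

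All 8 arrays had been scaled to the same trimmed mean signal, between 150.05 and 150.06 units, and no further scaling was applied. On the array labelled hyperthyroid 5 the extraocular myosins were nearly missing. The signals of Myh13, Myh8 and Myh3 summed to 223 there, and to at most 36116 on the other hyperthyroid arrays and 20859 to 31086 on the control arrays. The 8 general muscle fibre markers summed to 91501 to 131779 on the hyperthyroid arrays and 111991 to 134198 on the controls. The comparisons below are therefore given on all 8 arrays and without hyperthyroid 5. The Gapdh control ratio, a measure of RNA integrity, varied between arrays: the signal of the 3' Gapdh control probe set was 3.91, 4.40, 2.18 and 1.44 times that of the 5' one on hyperthyroid 1, 2, 3 and 5, and 1.97, 1.68, 1.77 and 1.67 times on controls 7, 8, 9 and 11. The means were 2.98 ± 1.40 and 1.77 ± 0.136 (SD, n = 4 each; two-sided exact permutation p = 0.229, where 0.0286 is the smallest p this design allows).

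On the arrays as deposited, most proteasome subunit transcripts had a lower mean signal in hyperthyroid than in control muscle, by amounts that did not pass the test adjusted over all genes. Of the 35 subunits, 28 had a negative log2 difference on all 8 arrays (80.0%, against 48.8% of all genes tested), and 31 had one without hyperthyroid 5 (88.6%, against 48.1%). This share did not hold in every setting. With the Gapdh ratio described above in the model, 16 of 35 were below 0 on 8 arrays. That model gave 26 of 35 below 0 without hyperthyroid 5. Without hyperthyroid 1 and 2, where only hyperthyroid 3 and 5 stood against the controls, 17 of 35 were below 0. The median difference of the subunits was -0.17 on the log2 scale with all arrays and -0.26 without hyperthyroid 5, where the medians of all genes were 0.01 and 0.02. It was -0.11 when hyperthyroid 1 alone was left out. The lowest difference on 8 arrays was that of Psmb2 (-0.44) and the highest that of Psmd12 (0.22).

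In limma with Benjamini-Hochberg adjustment, 0 of 35 subunits had an adjusted p under 0.05 on all 8 arrays, where 0% of all genes were called. Without hyperthyroid 5 again 0 of 35 were called, against 0.124% of all genes. The smallest adjusted p of a subunit was 0.309 with 8 arrays and 0.108 without hyperthyroid 5. At an unadjusted p under 0.05 on 8 arrays, 2 subunits were lower, Psmc6 and Psmc2 (5.71%, against 5.83% of all genes), and 0 were higher (against 6.34%). The share of lower subunits was thus close to the background on 8 arrays.

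Without hyperthyroid 5, 12 of 35 subunits were lower at an unadjusted p under 0.05 (34.3%, against 8.24% of all genes), and 0 were higher (against 7.85%). The 12 were Psma1, Psma2, Psma5, Psma6, Psma7, Psmb1, Psmb2, Psmb3, Psmb7, Psmc2, Psmc6 and Psmd4. They hold 5 of the 7 alpha subunits and 4 of the 6 measured constitutive beta subunits, 2 of the 6 ATPases, 1 of the 11 non-ATPases, and none of the immunoproteasome or activator genes. The count of 12 was 6 when control 8 was left out as well (against 6.53% of all genes). With control 8 kept and the Gapdh ratio in the model, it was 1 (against 2.97% of all genes). Every hyperthyroid array lay below every control array for 3 subunits on 8 arrays, Psmc4, Psmc6 and Psmd4 (8.57%, against 3.75% of all genes), and for 13 without hyperthyroid 5 (37.1%, against 7.23%). The opposite order, with all hyperthyroid arrays above all controls, was seen for 0 subunits in both sets (against 4.49% and 8.29% of all genes).

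When each array was instead centred on its median, the median of all genes shifted to -0.11 on 8 arrays and -0.16 without hyperthyroid 5, and the balance of all genes moved to 9.69% lower and 2.82% higher at an unadjusted p under 0.05 (17.2% and 2.73% without hyperthyroid 5). With that scaling 5 subunits were lower on 8 arrays and 20 without hyperthyroid 5, and Psma5, Psma7, Psmb2 and Psmb7 had an adjusted p under 0.05 in the latter set, where 180 of the 10446 genes (1.72%) were called.

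**Figure D1:**
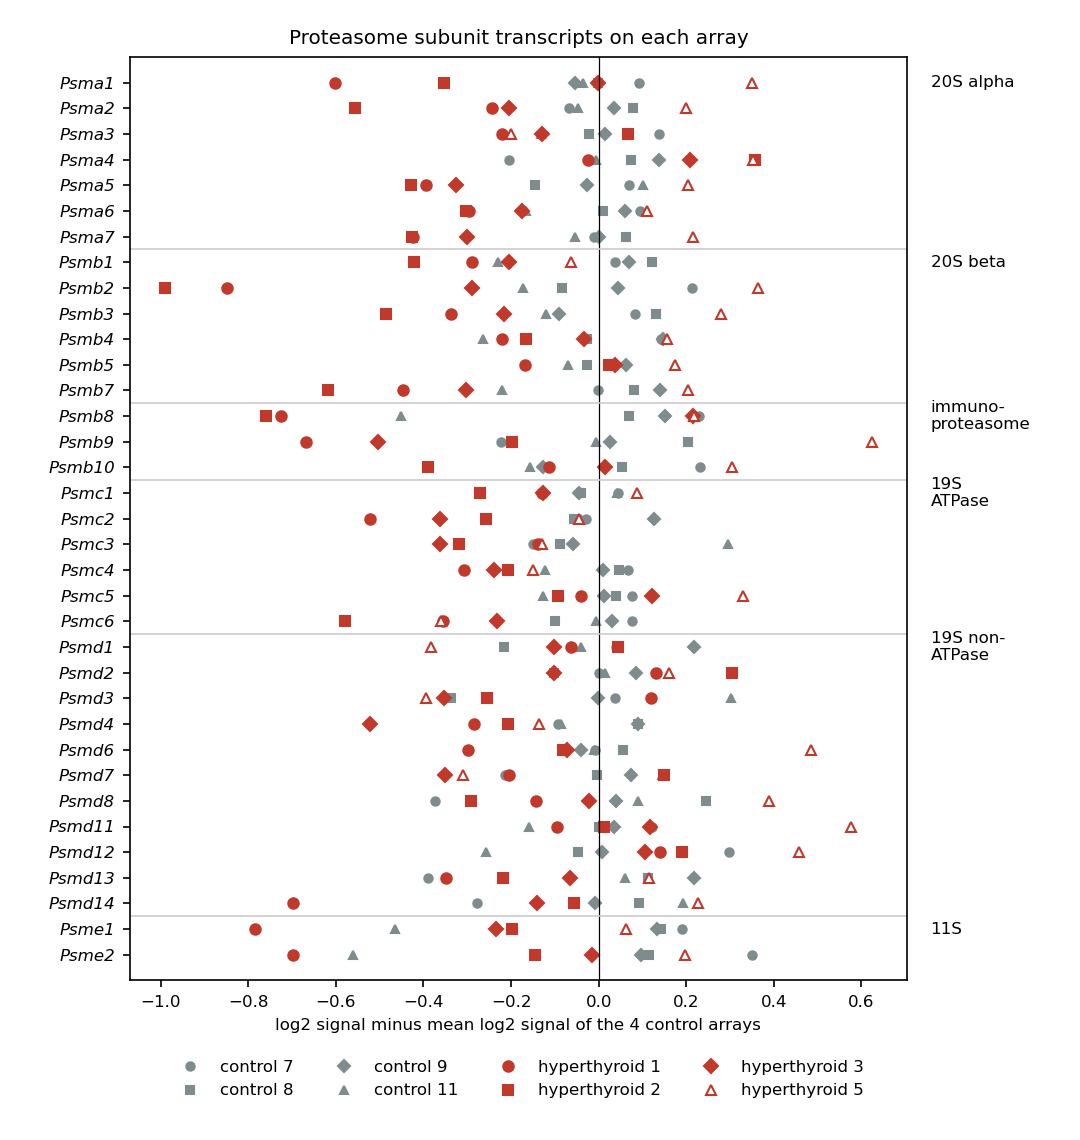
Log2 signal of the 35 measured proteasome subunits (one line each, grouped by subcomplex) on each of the 8 arrays, as the difference from the mean log2 signal of the 4 control arrays. Hyperthyroid 1 and 2 lie farthest to the left for most 20S genes (Psmb2 at -0.85 and -0.99), while hyperthyroid 5 (open triangles) is the highest of the 8 arrays for 19 of the 35 subunits.

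The 4 hyperthyroid arrays did not act as one group. Relative to the control mean, the median over the 35 subunits was -0.29, -0.22, -0.14 and 0.20 for the arrays in the order 1, 2, 3 and 5. The control arrays had medians of 0.04, 0.04, 0.04 and -0.05. Hyperthyroid 1, 2 and 3 were thus below all controls and hyperthyroid 5 above them, while the medians of all genes lay between 0.00 and 0.06 on the 8 arrays. Of the 35 subunits, 32, 27, 28 and 10 were below the control mean on hyperthyroid 1, 2, 3 and 5. Hyperthyroid 2 was the lowest of the 8 arrays for 12 subunits and hyperthyroid 1 for 10.

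Proteasome subunits are bright on this array, and bright genes as a class had a median difference below 0. When the 10446 genes were divided into quintiles by mean signal, 31 of the 35 subunits fell in the brightest. The 2089 genes of that quintile had a median difference of -0.08 on 8 arrays and -0.09 without hyperthyroid 5, and 60.6% and 61.8% of them were below 0. In the dimmest quintile the medians were 0.09 and 0.15. By array, the median deviation of the brightest quintile from the control mean was -0.11, -0.07, -0.08 and 0.01 on hyperthyroid 1, 2, 3 and 5. On controls 7, 8, 9 and 11 it was 0.03, 0.01, 0.03 and -0.06, so the groups overlapped. The 2 subunits lower at an unadjusted p under 0.05 on 8 arrays and the 12 without hyperthyroid 5 all belong to the brightest quintile, in which 13.1% and 20.2% of genes were lower by the same rule. The medians of the subunits, -0.17 and -0.26, were below those of this quintile.

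**Figure D2:**
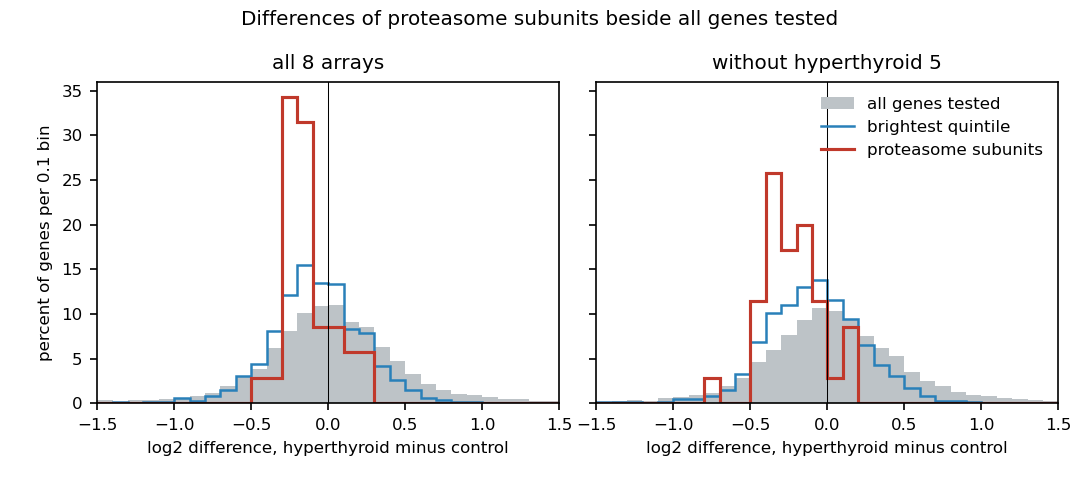
Distribution of the log2 difference between hyperthyroid and control arrays for all 10446 genes tested (grey), the 2089 genes of the brightest quintile (blue) and the 35 proteasome subunits (red), in percent of genes per bin of 0.1, on all 8 arrays (left) and without hyperthyroid 5 (right). The subunits peak below 0, with medians of -0.17 and -0.26, to the left of the brightest quintile at -0.08 and -0.09.

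The alpha ring subunits hold the gate of the core and carry no active site. Of the 7, 6 were below 0 on 8 arrays, with a median of -0.17 (-0.32 without hyperthyroid 5). Psma7 had signals of 1806, 1800, 1965 and 2810 on hyperthyroid 1, 2, 3 and 5 and of 2403, 2529, 2421 and 2333 on controls 7, 8, 9 and 11. Hyperthyroid 1 to 3 were below all controls and hyperthyroid 5 above them. Its log2 difference was -0.23 ± 0.15 (± SE here and below) on 8 arrays (limma adjusted p = 0.566) and -0.38 ± 0.11 without hyperthyroid 5 (unadjusted p = 0.00332, adjusted p = 0.142).

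The same order of arrays held for Psma5, at 900, 879, 944 and 1363 against 1241, 1069, 1162 and 1269. Its difference was -0.24 ± 0.16 on 8 arrays and -0.38 ± 0.12 without hyperthyroid 5 (adjusted p = 0.173). Psma2 read 1806, 1454, 1856 and 2456 against 2040, 2260, 2193 and 2070, with differences of -0.20 ± 0.16 and -0.34 ± 0.12. In Psma2, too, hyperthyroid 1 to 3 lay below the lowest control and hyperthyroid 5 above the highest.

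Psma6, at 4731, 4706, 5145 and 6273 against 6202, 5849, 6058 and 5175, had differences of -0.17 ± 0.13 and -0.26 ± 0.11. Hyperthyroid 3 lay just under control 11 for this gene, so the groups without hyperthyroid 5 were separated by a narrow gap. Psma1 read 1048, 1246, 1588 and 2026 against 1695, 1588, 1531 and 1551, and its differences were -0.15 ± 0.19 and -0.32 ± 0.14. Hyperthyroid 3 was inside the control range there, and only hyperthyroid 1 and 2 were below it. The remaining alpha subunits were Psma3 (-0.12 ± 0.13, and -0.09 ± 0.14 without hyperthyroid 5) and Psma4, which was the one alpha subunit above 0 (0.22 ± 0.14, 95% interval -0.08 to 0.53, and 0.18 ± 0.14 without hyperthyroid 5). The groups overlapped for both.

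Among the constitutive beta subunits, 5 of the 6 measured were below 0 on 8 arrays and 6 of 6 without hyperthyroid 5, with medians of -0.22 and -0.33 (-0.14 when hyperthyroid 2 alone was left out). Psmb2, a subunit of the beta ring without an active site, had the widest spread of these. It read 587, 531, 864 and 1358 on hyperthyroid 1, 2, 3 and 5 and 1224, 997, 1088 and 936 on the controls. Hyperthyroid 5 was the highest of all 8 arrays and the other hyperthyroid arrays the 3 lowest. The difference was -0.44 ± 0.26 on 8 arrays (adjusted p = 0.529) and -0.71 ± 0.17 without hyperthyroid 5, a change in geometric mean of -38.8% (unadjusted p = 0.00155, adjusted p = 0.108). When hyperthyroid 3 was left out as well, the adjusted p of Psmb2 was 0.0299. That fit held only hyperthyroid 1 and 2, with Gapdh ratios of 3.91 and 4.40, against the controls. In it, 64 of the 10446 genes (0.613%) were called. Without hyperthyroid 1 and 2 instead, the difference of Psmb2 was 0.037.

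Of the active beta subunits, Psmb7 carries the trypsin-like site and Psmb5 the chymotrypsin-like site. Psmb7 read 1504, 1334, 1660 and 2362 against 2048, 2166, 2259 and 1759, with a difference of -0.29 ± 0.18 on 8 arrays and -0.46 ± 0.13 without hyperthyroid 5 (adjusted p = 0.15). Psmb5 read 1823, 2084, 2101 and 2311 against 2097, 2011, 2138 and 1952, and its difference was 0.02 ± 0.12 (95% interval -0.24 to 0.28) and -0.04 ± 0.11 without hyperthyroid 5. For Psmb7 hyperthyroid 1 to 3 were below all controls, and for Psmb5 the groups overlapped in both sets. The difference between these 2 genes was not tested.

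The structural subunit Psmb1 read 2839, 2589, 3009 and 3322 against 3562, 3777, 3642 and 2960, with differences of -0.25 ± 0.13 and -0.31 ± 0.12. Control 11 fell among the hyperthyroid arrays there. Psmb3 read 705, 637, 768 and 1081 against 944, 976, 837 and 820, with differences of -0.19 ± 0.17 and -0.35 ± 0.13. Hyperthyroid 1 to 3 were below all controls for Psmb3, and hyperthyroid 5 was the highest array. Psmb4 differed by -0.07 ± 0.14 and -0.14 ± 0.13, with overlapping groups.

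The 3 immunoproteasome subunits were below 0 in both sets of arrays, with medians of -0.19 and -0.42 (-0.03 on the arrays left without hyperthyroid 1, -0.10 without hyperthyroid 2, -0.08 without hyperthyroid 3 and -0.12 without control 8), and all 3 lay outside the brightest quintile of genes. Psmb8, which replaces Psmb5, read 85.6, 83.6, 164 and 164 on hyperthyroid 1, 2, 3 and 5 and 166, 149, 157 and 104 on the controls. Its difference was -0.26 ± 0.29 on 8 arrays (adjusted p = 0.736) and -0.42 ± 0.29 without hyperthyroid 5. Hyperthyroid 1 and 2 were below all controls, and hyperthyroid 3 was within their range.

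Psmb9, the counterpart of the unmeasured Psmb6, read 71.9, 99.6, 80.7 and 176 against 98.0, 132, 116 and 114, with differences of -0.19 ± 0.29 and -0.46 ± 0.25. Psmb10, the counterpart of Psmb7, read 190, 157, 208 and 254 against 242, 214, 189 and 185, with differences of -0.05 ± 0.19 and -0.16 ± 0.19. For both genes hyperthyroid 5 was the highest of the 8 arrays and the groups overlapped.

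Psmb8 and Psmb10 were also each set against their counterpart on the same array, as the difference of the log2 deviations from the control mean. Psmb9 was not, as Psmb6 was not measured. For Psmb8 relative to Psmb5 this was -0.56, -0.78, 0.18 and 0.04 for the hyperthyroid arrays in the order 1, 2, 3 and 5, against 0.19, 0.10, 0.09 and -0.38 for the controls. For Psmb10 relative to Psmb7 it was 0.33, 0.23, 0.32 and 0.10 against 0.23, -0.03, -0.27 and 0.06. The groups overlapped for both pairs, so in these pairs no shift between the constitutive and the interferon-induced forms stood out from the spread between arrays.

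Leukocytes hold immunoproteasomes, and their markers also varied between the arrays. The median deviation of the 9 leukocyte markers that passed the filter, of 12 measured, was -0.17, -0.85, -0.25 and 1.02 for the hyperthyroid arrays in the order 1, 2, 3 and 5, against -0.26, 0.23, 0.06 and 0.11 for the controls. Summed over the 12 genes the signal was 1432 to 4948 in the hyperthyroid group and 1602 to 2649 in the controls. No marker was at 0, and Cd3e, Cd79b and Itgam were too dim to pass. Hyperthyroid 5, the array highest in Psmb9 and Psmb10, was also the highest in the median and sum of these markers. The order of the other arrays differed. The immunoproteasome median was lowest on hyperthyroid 1 (-0.67) and the marker median on hyperthyroid 2 (-0.85). The part of the markers in the immunoproteasome values was not tested.

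The ATPases form the ring that unfolds the substrate and opens the gate, and they were the subcomplex with the most even values across the hyperthyroid arrays. Their median deviation from the control mean was -0.22, -0.26, -0.24 and -0.09 for the hyperthyroid arrays in the order 1, 2, 3 and 5, against 0.05, -0.05, 0.01 and -0.02 for the controls. All hyperthyroid arrays, hyperthyroid 5 included, were below all controls. This separation was kept with quantile and cyclic loess normalization, and was lost with each array centred on its median and with the mean over all probe sets of a gene. Of the 6 ATPases, 5 were below 0 on 8 arrays (median -0.23) and 6 without hyperthyroid 5 (median -0.26). For every other subcomplex the array medians of the groups overlapped.

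Psmc6 was the subunit with the smallest p on 8 arrays. It read 1624, 1390, 1769 and 1618 on hyperthyroid 1, 2, 3 and 5 and 2188, 1939, 2120 and 2068 on the controls. Each hyperthyroid array was below each control array. The difference was -0.38 ± 0.12, a change in geometric mean of -23.2% (95% interval of the log2 difference -0.64 to -0.12, unadjusted p = 0.00849, adjusted p = 0.309). It was the same without hyperthyroid 5 (-0.39 ± 0.12, adjusted p = 0.17).

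The other probe sets of Psmc6 did not show this difference. The second brightest read 797, 663, 1063 and 1199 on the hyperthyroid arrays and 674, 626, 713 and 460 on the controls, a difference of 0.57 ± 0.21 in the opposite direction (unadjusted p = 0.0189), and of 0.44 ± 0.19 without hyperthyroid 5 (unadjusted p = 0.043). Hyperthyroid 2 was within the control range there and the other 3 above it. The third differed by -0.12 ± 0.18 (-0.12 ± 0.20 without hyperthyroid 5). With the mean over the 3 probe sets the difference of Psmc6 was 0.02, so its direction depends on the probe set. Which parts of the transcript the 3 probe sets cover was not analysed here.

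Psmc2 read 2304, 2767, 2573 and 3208 against 3240, 3183, 3608 and 3216, a difference of -0.30 ± 0.13 on 8 arrays (unadjusted p = 0.0425, adjusted p = 0.416) and -0.38 ± 0.11 without hyperthyroid 5 (adjusted p = 0.159). Hyperthyroid 1 to 3 were below all controls and hyperthyroid 5 was inside their range. On 8 arrays its unadjusted p was 0.05 or above when any one of hyperthyroid 1, 2 or 3 or of the controls was left out.

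Psmc4 read 610, 655, 639 and 680 against 791, 780, 760 and 694, with no overlap and a difference of -0.23 ± 0.12 on 8 arrays (unadjusted p = 0.0872, adjusted p = 0.489) and -0.25 ± 0.12 without hyperthyroid 5. Psmc3 (-0.24 ± 0.14, then -0.27 ± 0.15 without hyperthyroid 5) and Psmc1 (-0.11 ± 0.12, then -0.18 ± 0.11) were also below 0. Psmc5 was above it on 8 arrays (0.08 ± 0.13) and at -0.0038 ± 0.12 without hyperthyroid 5. The groups overlapped for these 3 genes on 8 arrays.

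**Figure D3:**
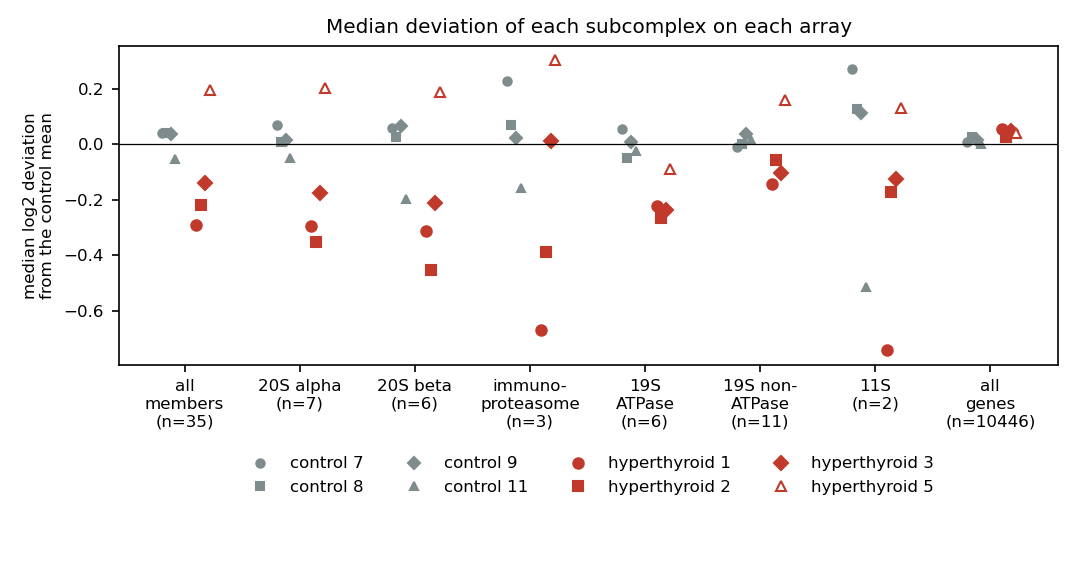
Median log2 deviation from the control mean over the measured genes of each subcomplex, for each of the 8 arrays, beside all members and all genes tested. For the 19S ATPases the 4 hyperthyroid arrays (-0.26 to -0.09) lie below the 4 controls (-0.05 to 0.05). For the other subcomplexes hyperthyroid 5 lies above the controls or among them.

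The non-ATPase subunits form the lid and part of the base, which bind and process ubiquitinated proteins. As a group they had the median nearest 0 of the subcomplexes, -0.13 on 8 arrays and -0.15 without hyperthyroid 5, and 7 and 8 of 11 below 0. The median on 8 arrays was 0.01 when hyperthyroid 1 was left out. Psmd4, a ubiquitin receptor, read 670, 707, 569 and 743 on hyperthyroid 1, 2, 3 and 5 and 765, 869, 868 and 768 on the controls. The groups did not overlap, and the difference was -0.29 ± 0.13 on 8 arrays (unadjusted p = 0.0549, adjusted p = 0.443) and -0.34 ± 0.13 without hyperthyroid 5 (unadjusted p = 0.0263).

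Psmd14, the deubiquitinase that removes ubiquitin chains at the entrance, differed by -0.17 ± 0.19 on 8 arrays and -0.30 ± 0.17 without hyperthyroid 5. Its other 2 probe sets differed by -0.28 ± 0.20 and -0.28 ± 0.30 on 8 arrays, and by -0.45 ± 0.17 (unadjusted p = 0.0198, adjusted p = 0.239) and -0.54 ± 0.25 without hyperthyroid 5, all in one direction. The 2 probe sets of Psmd7, the partner of Psmd14, also lay in one direction, at -0.18 ± 0.15 and -0.35 ± 0.22 on 8 arrays and -0.14 ± 0.15 and -0.45 ± 0.22 without hyperthyroid 5.

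The lid subunit Psmd3 differed by -0.22 ± 0.19 on 8 arrays and -0.16 ± 0.20 without hyperthyroid 5. The scaffold subunits of the base, Psmd1 and Psmd2, differed by -0.13 ± 0.14 and 0.12 ± 0.13, and by -0.04 ± 0.13 and 0.11 ± 0.13 without hyperthyroid 5. The other lid subunits above 0 on 8 arrays were Psmd11 (0.15 ± 0.16), Psmd12 (0.22 ± 0.15) and Psmd6 (0.01 ± 0.16), which without hyperthyroid 5 stood at 0.01 ± 0.12, 0.15 ± 0.14 and -0.15 ± 0.12. Psmd8 (-0.02 ± 0.19) and Psmd13 (-0.13 ± 0.17) stood at -0.15 ± 0.17 and -0.21 ± 0.17. For Psmd6, Psmd8, Psmd11 and Psmd12 hyperthyroid 5 was the highest of the 8 arrays. Of the non-ATPase subunits, Psmd4 was the 1 with an unadjusted p under 0.05 in either set by its brightest probe set.

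The 11S activator, a ring of Psme1 and Psme2 products that opens the core without ATP, varied within the control group itself. Psme1 read 747, 1123, 1094 and 1345 on hyperthyroid 1, 2, 3 and 5 and 1470, 1420, 1412 and 933 on controls 7, 8, 9 and 11. Psme2 read 657, 964, 1055 and 1222 against 1358, 1154, 1140 and 722. For both genes the lowest arrays were hyperthyroid 1 and control 11, so the groups overlapped. The differences were -0.29 ± 0.20 for Psme1 and -0.17 ± 0.23 for Psme2 on 8 arrays, and -0.41 ± 0.19 and -0.29 ± 0.22 without hyperthyroid 5. The median of the pair was -0.23 on 8 arrays, -0.055 without hyperthyroid 1, -0.14 without control 7 and -0.40 without control 11. When control 11 was left out, Psme1 was lower at an unadjusted p under 0.05.

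Psme1 has a second, dim probe set with a difference of the opposite sign. It read 124, 104, 120 and 99.0 on the hyperthyroid arrays and 47.1, 67.1, 71.9 and 46.9 on the controls. All hyperthyroid arrays were above all controls, and the difference was 0.96 ± 0.26 (unadjusted p = 0.00316, adjusted p = 0.27), and 1.018 ± 0.30 without hyperthyroid 5. The probe sets of Psme1 thus disagree in direction, and with their mean the gene's difference was 0.34.

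**Figure D4:**
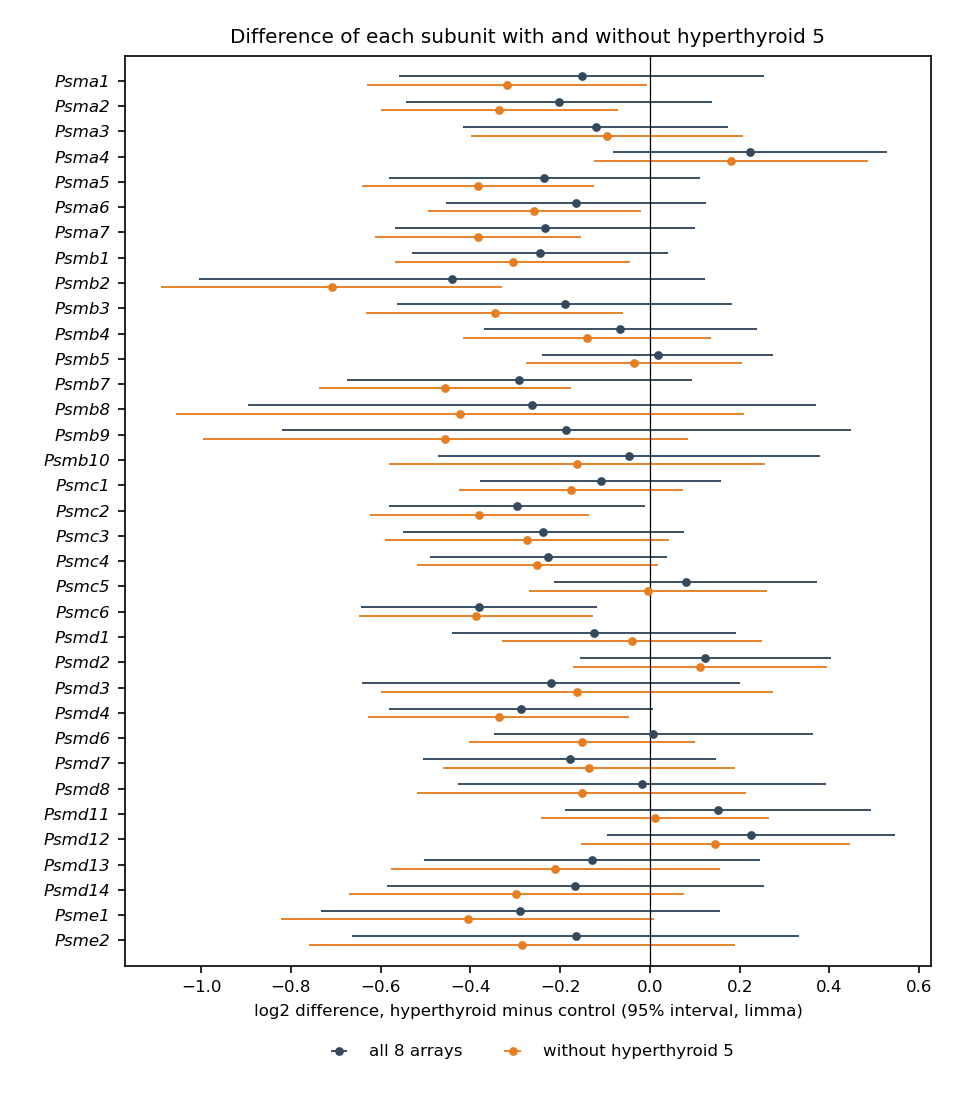
Log2 difference between hyperthyroid and control arrays with its 95% interval (limma) for each of the 35 subunits, on all 8 arrays (dark) and without hyperthyroid 5 (orange). The intervals of Psmc6 and Psmc2 lie below 0 on 8 arrays, and those of 12 subunits do so without hyperthyroid 5, with Psmb2 the lowest at -0.71.

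The arrays low in proteasome signal were those with the highest Gapdh ratio. Hyperthyroid 1 and 2, with ratios of 3.91 and 4.40, had the lowest subunit medians (-0.29 and -0.22), and hyperthyroid 5, with the lowest ratio of the 8 arrays, had the highest (0.20). With the log2 Gapdh ratio as a covariate the median difference of the subunits was 0.03 on 8 arrays and -0.17 without hyperthyroid 5. Without hyperthyroid 1 and 2, with only hyperthyroid 3 and 5 in the group and no covariate, it was 0.02. The ratios of hyperthyroid 1, 2 and 3 (2.18 to 4.40) all lay above those of the controls (1.67 to 1.97). Without hyperthyroid 5 the ratio and the treatment thus cannot be told apart. On 8 arrays hyperthyroid 5, at 1.44, was the only array of its group not above the controls. Psmc6 was the 1 subunit lower at an unadjusted p under 0.05 with the covariate on 8 arrays, and Psmd11 the 1 higher. Of all genes, 8.14% were lower and 6.71% higher in that fit. Without hyperthyroid 1 and 2 no subunit was under that p in either direction, against 6.16% of all genes lower and 5.09% higher. Of the 28 subunits below 0 on 8 arrays, 12 were above 0 with the covariate, at 0.03 to 0.23. They were Psma1 and Psma2, Psmb2, Psmb3 and Psmb4, the 3 immunoproteasome subunits, Psmd8, Psmd13 and Psmd14, and Psme2. All of these but Psma2 were also above 0 without hyperthyroid 1 and 2. For the brightest probe set of Psmc6 the difference was -0.32 with the covariate (unadjusted p = 0.0318) and -0.30 without hyperthyroid 1 and 2 (unadjusted p = 0.0558).

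Other tissue markers also differed between the arrays. The median of the 6 fibroblast markers was -0.94, -1.04, -0.20 and 0.70 on hyperthyroid 1, 2, 3 and 5, and their summed signal was 12759 to 41805 in the hyperthyroid group and 19184 to 36612 in the controls. The 5 adipocyte markers had medians of -1.11, -3.03, 0.74 and 1.55, and summed to 941 to 12040 and to 2216 to 3671. The 3 measured oligodendrocyte and Schwann cell markers had medians of 0.16, -4.87, -0.10 and -6.96, and summed to 76.2 to 11940 and to 6725 to 15137. The 3 epithelial markers that passed the filter, of 4, had medians of -0.28, -1.68, -1.26 and -3.21, and the 4 summed to 39.2 to 159 and to 173 to 649. The 3 measured endothelial markers had medians of 0.23, 0.28, 0.44 and 0.16, against -0.05, -0.05, 0.02 and 0.09 on the controls. They summed to 1130 to 1442 and to 941 to 1103. Of these markers Kdr was higher without overlap, as were 4.49% of all genes, and the groups overlapped for Pecam1 and Tek. By median and sum, adipocyte markers were thus highest on hyperthyroid 5, and the oligodendrocyte and epithelial ones lowest there. The fibroblast sum was highest on hyperthyroid 5, but the fibroblast median was higher on control 11 (0.73). Lum and Pdgfra read 931 and 604 on hyperthyroid 5, the lowest of the 8 arrays. No marker was at 0, but some values were far under the filter level of about 28.2 units, as for Mobp (1.37) and Epcam (1.40) on hyperthyroid 5. Detection calls were not used, so a value above 0 does not show that a marker was present. The part of these markers in the subunit values was not tested.

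**Figure D5:**
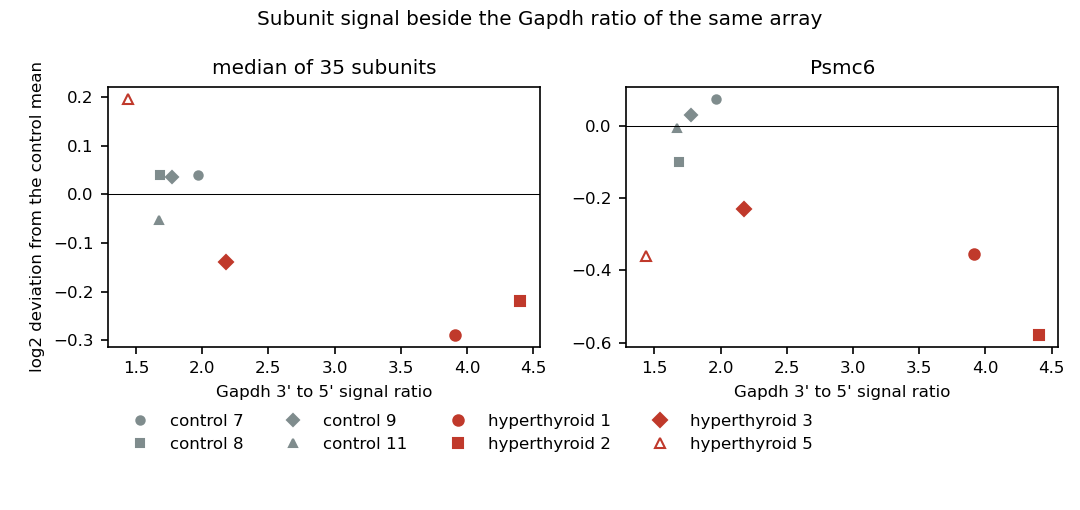
Median log2 deviation of the 35 subunits (left) and deviation of Psmc6 (right) from the control mean, against the ratio of 3' to 5' Gapdh signal on the same array, one point per array. On the left the arrays with ratios of 3.91 and 4.40 are the lowest and the one with 1.44 is the highest. On the right, by the brightest probe set of Psmc6, all 4 hyperthyroid arrays lie below the controls. Its second brightest probe set, not drawn, differed by 0.57 ± 0.21 (SE) on 8 arrays, in the opposite direction.

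Proteasome genes are known to share promoter elements, and the promoter sequences of 32 of the 36 genes, from RefSeq on GRCr8, were searched for 4 short motifs. Each sequence runs from 250 bases before the annotated start to 50 after it. The 4 shown are those of Psmc6 and Psmc2, the subunits with the smallest p on 8 arrays, of Psmb2, which had the largest difference without hyperthyroid 5, and of Psmb10, an immunoproteasome gene. Capitals mark every match of the motifs on either strand. They lie at chr15:21022064-21022363 (plus strand), chr4:14162341-14162640 (minus strand), chr5:144254808-144255107 (plus strand) and chr19:50743243-50743542 (minus strand).
Psmc6: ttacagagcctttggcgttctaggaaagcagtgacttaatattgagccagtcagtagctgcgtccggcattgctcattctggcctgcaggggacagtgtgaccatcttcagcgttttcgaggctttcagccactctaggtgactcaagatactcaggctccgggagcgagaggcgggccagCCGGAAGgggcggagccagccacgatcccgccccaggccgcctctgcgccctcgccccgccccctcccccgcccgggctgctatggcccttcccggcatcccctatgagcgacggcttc
Psmc2: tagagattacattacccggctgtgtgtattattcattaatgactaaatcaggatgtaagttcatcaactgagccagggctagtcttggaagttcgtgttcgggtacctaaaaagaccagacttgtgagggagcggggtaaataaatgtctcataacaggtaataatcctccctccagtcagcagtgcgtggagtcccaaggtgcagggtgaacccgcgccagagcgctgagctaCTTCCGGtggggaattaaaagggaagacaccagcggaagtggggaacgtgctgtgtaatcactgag
Psmb2: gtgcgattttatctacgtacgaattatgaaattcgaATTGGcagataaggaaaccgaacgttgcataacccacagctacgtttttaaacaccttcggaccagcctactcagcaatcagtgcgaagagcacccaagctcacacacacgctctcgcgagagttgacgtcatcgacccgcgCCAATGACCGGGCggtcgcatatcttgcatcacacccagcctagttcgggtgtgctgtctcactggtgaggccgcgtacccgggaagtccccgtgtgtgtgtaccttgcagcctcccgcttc
Psmb10: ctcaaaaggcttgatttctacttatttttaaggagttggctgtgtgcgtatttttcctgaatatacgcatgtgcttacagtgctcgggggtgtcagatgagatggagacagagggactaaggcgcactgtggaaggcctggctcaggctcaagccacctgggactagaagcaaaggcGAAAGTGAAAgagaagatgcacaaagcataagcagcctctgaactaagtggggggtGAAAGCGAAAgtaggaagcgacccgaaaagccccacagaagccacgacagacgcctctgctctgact

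In these sequences Psmc6 and Psmc2 each hold the ETS family motif CCGGAAG once, starting 69 and 16 bases before the start, Psmc2 on the opposite strand. Psmb2 holds CCAAT, the NF-Y motif, starting 214 bases (opposite strand) and 72 bases before the start, and the antioxidant response element core TGACNNNGC, a motif of the Nfe2l1 and Nfe2l2 factors, at 68 bases, which shares 1 base with the second CCAAT. Psmb10 holds the interferon-stimulated response element core, GAAA followed by any 2 bases and GAAA, at 73 and 17 bases before the start.

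Over the 32 genes, TGACNNNGC was found in 6 (18.8%), CCAAT in 16, the interferon element in 6 (18.8%) and CCGGAAG in 10 (31.3%). Of all 27457 genes with promoter sequences of the same length, 13.1%, 39.6%, 4.12% and 9.63% held these motifs in any of their promoters. Of the 11734 such genes annotated on the array, 15.2%, 38.6%, 3.21% and 15.4% did. The CCGGAAG genes were all of the core or the regulatory particle (10 of 27, and 0 of the 5 immunoproteasome and activator genes), and the interferon element was in 3 of 27 and 3 of 5.

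The median differences of the measured subunits with and without CCGGAAG (10 and 21 genes) were -0.17 and -0.19 on 8 arrays and -0.23 and -0.27 without hyperthyroid 5. For TGACNNNGC (5 and 26 genes) they were -0.13 and -0.18, and without hyperthyroid 5 -0.09 and -0.28. For CCAAT (16 and 15 genes) they were -0.20 and -0.13, and without hyperthyroid 5 -0.33 and -0.16. For the interferon element (6 and 25 genes) they were -0.17 and -0.19, and without hyperthyroid 5 -0.22 and -0.26. These are descriptions with no test. The motifs were chosen after the array values were known, and a match describes the letters only.

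Of the other genes of the pathway, 48 were listed in 6 groups, of which 39 were measured and 37 tested. Of these 37, 4 were lower and 2 higher at an unadjusted p under 0.05 on 8 arrays (6 and 3 without hyperthyroid 5), and 0 had an adjusted p under 0.05. That is 10.8% lower and 5.41% higher on 8 arrays, against the 5.83% and 6.34% of all genes given above, and 16.2% and 8.11% without hyperthyroid 5, against 8.24% and 7.85%. Their median difference was -0.09 on 8 arrays and -0.04 without hyperthyroid 5.

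The genes that deliver ubiquitinated proteins to the proteasome held 3 of the 4 lower ones and 1 of the 2 higher ones among their 9 tested. Nsfl1c, a cofactor of the Vcp ATPase, read 307, 332, 289 and 308 on hyperthyroid 1, 2, 3 and 5 and 465, 501, 637 and 488 on the controls. The groups did not overlap, and the difference was -0.75 ± 0.15 (adjusted p = 0.214), and -0.75 ± 0.16 without hyperthyroid 5. Ubqln1, a shuttle that binds both ubiquitin and the proteasome, read 480, 565, 577 and 444 against 636, 707, 731 and 689 (-0.43 ± 0.14, adjusted p = 0.325), again without overlap, and differed by -0.36 ± 0.13 without hyperthyroid 5.

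Vcp, which extracts ubiquitinated proteins from complexes, differed by -0.29 ± 0.12 (unadjusted p = 0.0403), with overlapping groups, and by -0.31 ± 0.12 without hyperthyroid 5. Uba1, the enzyme that activates ubiquitin, was higher on every hyperthyroid array, at 897, 1045, 983 and 813 against 603, 726, 662 and 690 (0.48 ± 0.13, adjusted p = 0.277, and 0.54 ± 0.13 without hyperthyroid 5). For Nsfl1c, Ubqln1 and Uba1, hyperthyroid 5 thus lay on the same side of the controls as the other 3 arrays of its group. They were the only genes of the 37 tested in the 6 groups without overlap on 8 arrays. Of all genes, 3.75% lay lower and 4.49% higher without overlap.

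Of the 8 assembly factors, 6 were below 0 (median -0.10). Pomp, which matures the beta ring, read 2459, 2934, 2808 and 3402 against 3840, 3476, 3698 and 3238 (-0.30 ± 0.13, unadjusted p = 0.0397), with hyperthyroid 5 inside the control range as for Psmc2, and differed by -0.38 ± 0.11 without hyperthyroid 5. Of the 8 proteasome-bound proteins tested, 3 were below 0, and the smallest p was that of the deubiquitinase Uchl5 (0.23 ± 0.14, unadjusted p = 0.124, and 0.24 ± 0.14 without hyperthyroid 5). Without hyperthyroid 5, the small 19S subunit Sem1 was lower (-0.30 ± 0.12, unadjusted p = 0.0274) and the ubiquitin ligase Ube3c higher (0.41 ± 0.18, unadjusted p = 0.0488). Of the 4 regulators of proteasome gene transcription the smallest p was that of Nfe2l2 (0.19 ± 0.16, unadjusted p = 0.245, and 0.13 ± 0.16 without hyperthyroid 5). Of the 8 tested genes of MHC class I presentation and the interferon response, 5 were below 0. Tapbp, which loads peptides on MHC class I, was above 0 (0.58 ± 0.25, limma unadjusted p = 0.0425, adjusted p = 0.416), with overlapping groups, and at 0.62 ± 0.28 without hyperthyroid 5. B2m, the light chain of MHC class I, was lower without hyperthyroid 5 (-0.34 ± 0.13, unadjusted p = 0.0265).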

How the data were processed

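Total RNA of dissected extraocular muscle was hybridised to Affymetrix arrays, with 1 array for each of the 8 rats per the series' design. The deposited table holds linear intensity values, produced with GCOS per the submitters' processing notes, with detection calls not used here. The values themselves show a common trimmed mean of 150 on every array. Values under 1 were set to 1 and log2 was taken, and the upper 60% of probe sets by mean log2 signal (18625 of 31042, above about 28.2 units) were kept. Genes were named through the platform annotation of probe sets with 1 symbol (20826 probe sets). Differences were tested with limma 3.58.1 in R 4.3.3 (moderated linear model with a mean-variance trend, two-sided, Benjamini-Hochberg adjustment over all probe sets kept), which was tested on simulated data. The limma p-values set each difference against the spread between arrays within the groups, moderated over all probe sets kept. With 4 arrays a group the precision is limited. The Gapdh ratio was compared with an exact permutation test. Every member with a single-symbol probe set is named, with values on each array for those under an unadjusted p of 0.05 in either set of arrays, the immunoproteasome genes with their counterparts, and the activators; other pathway genes are named at that p on 8 arrays or as the smallest p of their list there, and Sem1, Ube3c and B2m, under that p without hyperthyroid 5, were named after their values were seen. Psmc4 was added to those shown by array because its groups did not overlap. The members and lists were chosen with earlier results of these data known. The alternatives were other scalings, filters, transforms, variance models, array weights, the mean over probe sets, a Gapdh covariate and leaving out arrays. Settings for the fit without hyperthyroid 5 were added after seeing the data.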

Additional observations from a re-analysis of the deposited data

Results flagged for a closer look

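In 84 groups of 4 arrays (70 for single subunits and 14 for lists), 5 values lay far from the rest of their group by Dixon's criterion at the 95% level, which chance exceeds in about 1 group in 20. Psma5 on hyperthyroid 5 read 1363, where the other hyperthyroid arrays read 879 to 944. Psmc2 on control 9 read 3608, where the other controls read 3183 to 3240. Psme1 on control 11 read 933, where the other controls read 1412 to 1470. The median deviation of all 35 subunits was -0.053 on control 11 and 0.04 on each of the other controls, and that of the 20S beta subunits was -0.20 on control 11 and 0.03 to 0.07 on the others.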

How the results depend on the processing

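Over the 12 planned kinds of alternative on 8 arrays, no subunit had an adjusted p under 0.05. The 2 subunits lower at an unadjusted p under 0.05 became 1 with quantile normalization, cyclic loess, no filter, no mean-variance trend or the Gapdh covariate. The count was 5 with median centring, 7 with array weights, 0 without hyperthyroid 1 and 2, and 1 to 12 when single arrays were left out (12 without hyperthyroid 5). Of all genes, 5.58% were lower with quantile normalization or cyclic loess, 5.16% with no filter and 4.28% with no trend. The share was 8.14% with the covariate, 9.69% with median centring and 7.44% with array weights. It was 6.16% without hyperthyroid 1 and 2, and 3.96% to 8.24% without single arrays. With the Gapdh covariate 1 subunit was higher (against 6.71% of all genes). With the Gapdh covariate and without hyperthyroid 1 and 2 respectively, the median of all subunits was 0.028 and 0.025, that of the 20S beta genes 0.037 and 0.034, of the immunoproteasome 0.15 and 0.16, and of the 19S non-ATPases 0.058 and 0.029. Median centring gave -0.35 for the ATPases and -0.24 for the non-ATPases, whose median when single arrays were left out ranged from -0.15 to 0.011. Of the 28 subunits below 0, 12 were above 0 with the covariate, 11 without hyperthyroid 1 and 2, and 2 (Psmc6 and Psme1) with the mean over probe sets. Of the subunits under an unadjusted p of 0.05 in either set of arrays, the difference turned positive for Psma1 (0.15), Psma2 (0.027), Psmb2 (0.028) and Psmb3 (0.054) with the covariate, for Psma1 (0.17), Psmb2 (0.037) and Psmb3 (0.032) without hyperthyroid 1 and 2, and for Psmc6 (0.024) with the mean over its probe sets. In the fit without hyperthyroid 5, the 12 lower subunits became 20 with median centring, 7 with cyclic loess or no trend, and 1 with the covariate. They became 6 to 14 when a further array was left out (6 without control 8). Of all genes, 17.2% were lower there with median centring, 7.85% with cyclic loess, 5.46% with no trend and 2.97% with the covariate. Without a further array, 6.39% to 9.22% of all genes were lower. The median of the subunits without hyperthyroid 5 was -0.19 with quantile normalization or cyclic loess, -0.44 with median centring, -0.17 with the covariate and -0.28 to -0.20 without a further array. With an adjusted p under 0.05 there were 4 subunits with median centring (1.72% of all genes) and 0 to 1 without a further array (0% to 0.613%). The cause of these changes was not tested.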
